A study of Drosophila melanogaster with 12 samples.

Results

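A set of 72 probe sets, out of 13966 on the array that were not controls, gave higher signals on the arrays CA6, AA2 and AA6 than on every other array of a 12-array series of fly heads. The members were chosen by their measured values: the lowest of the 3 arrays had to lie above the highest of the 9 others, and the mean of the 3 had to exceed the mean of the 9 by at least 0.3 on the log2 scale. Genes whose symbols start with Acp, Mst57 or Jon were left out. The differences between those 3 arrays and the other 9 are therefore a description and were not tested. Of the 72 members, 60 carried 1 gene symbol each, for 60 different genes, 8 carried several symbols and 4 carried none. Most of the listed members encode digestive enzymes of the midgut or products of the male reproductive tract, and the member with the largest difference among those with 1 symbol, Cyp4g1, is known for its role in oenocytes.

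The flies were adult y w; tim01 mutants, which lack working TIM protein and with it the circadian clock, and all 12 arrays shared this genotype, constant darkness and rearing in the thermocycle from pupal stages on. On the CA day the flies were in a thermocycle with 18 °C at the hours 2, 6 and 10 (CA cold) and 25 °C at the hours 14, 18 and 22 (CA warm). On the AA day that followed they stayed at 25 °C, sampled at the hours 2, 6 and 10 (AA cold, where cold names only the phase of the past thermocycle) and 14, 18 and 22 (AA warm). Each time was 1 array made from 1 pool of heads, so the 3 arrays of a group are 3 times of day, and p-values measure the spread between those times, part of which may be technical. The sex of the flies is not given in the sources used here.

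Heads had been sieved from frozen flies that were broken apart, a step that separates heads from thorax, abdomen and smaller pieces. The midgut of the fly makes trypsins and other serine proteases, carboxypeptidases, lipases, maltases and lysozymes, and the male accessory glands, ejaculatory duct and ejaculatory bulb make the proteins of the seminal fluid and the mating plug. Oenocytes lie under the cuticle of the abdomen and make the long hydrocarbons that waterproof the fly. In a bulk head sample, more cells of such a type and more RNA per cell cannot be told apart.

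Head markers gave strong signals on all arrays, with Arr2, an arrestin that ends the light response, at a mean of 12.03 on CA6, AA2 and AA6 and 12.09 on the other 9 arrays (log2 signal). The array medians lay between 5.18 and 5.22, since the deposited values had been quantile normalized, and a rise or fall common to most genes would not show in them. The 23 control probe sets for RNAs that were not added, which give the level of a probe set with no target, averaged between 3.14 and 3.34 by array, and the highest of them lay between 4.89 and 5.22. The controls for added RNAs averaged 7.91 on CA18 and between 8.65 and 9.13 on the 11 other arrays, so CA18 stood apart in this respect. Whether this had a part in any result was not tested.

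Over all probe sets, 147 (1.05%) lay above all 9 other arrays on CA6, AA2 and AA6 at any size of difference, and 87 (0.623%) also met the minimum difference of 0.3. The names left out took 15 of these 87. Among the 72 members the difference was 0.50 at the median and reached 3.74, and it was 1 or more in 10 members. These are differences of signal. Only 24 members lay above the highest unspiked control on all 12 arrays, and 33 did so on CA6, AA2 and AA6. Against the mean of the unspiked controls, 56 members lay above it on all 12 arrays and 11 lay below it on all 9 other arrays. These 11 were Ebp, Pen, betaTub85D, CG8997, CG17472, CG12861, CG13309, MtnC, CG14540, CG31883 and Sgp, and CG13309 and CG14540 lay below it on all 12. For the 11 the signals are given without a difference, and folds are given only for members above the highest unspiked control on all arrays.

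**Figure D1:**
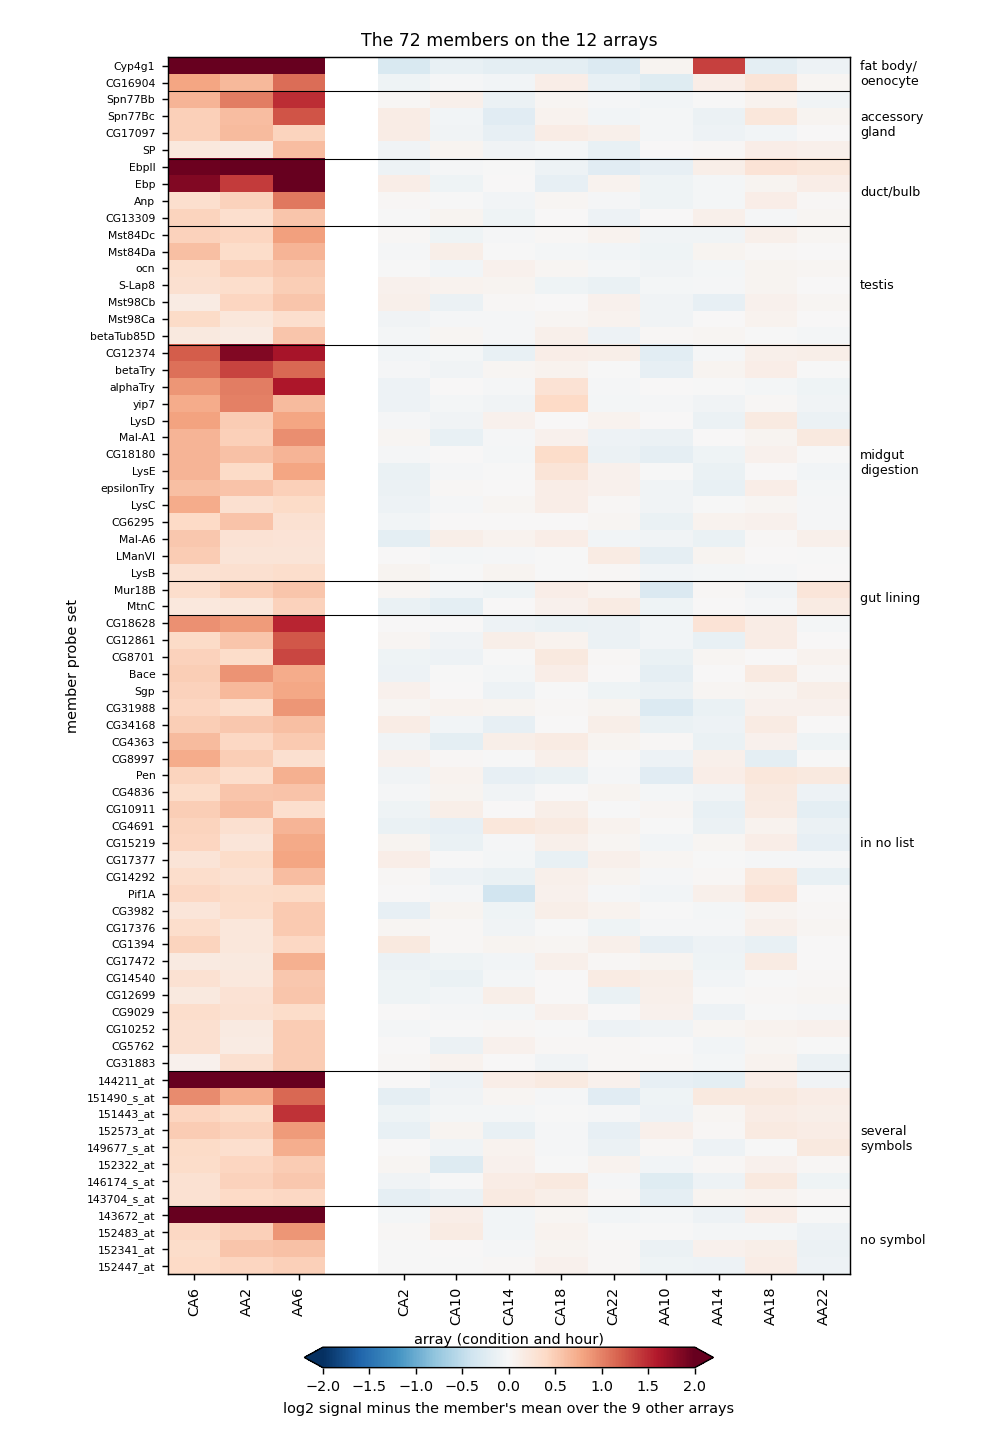
Log2 signal of each of the 72 members (rows) on CA6, AA2 and AA6 (left block) and on the other 9 arrays (right block), as the difference from the member's own mean over those 9 arrays, with the colour scale ending at -2 and 2. All rows are red in the left block by the choice of members. Within it AA6 had the highest value for 55 of 72, which the colours do not show where several arrays pass 2. Outside it the one strong cell is Cyp4g1 on AA14.

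Cyp4g1 encodes a cytochrome P450 that makes the last step of cuticular hydrocarbon synthesis in oenocytes. Its signal was 8.29 on CA6, 7.87 on AA2 and 9.05 on AA6, against a lowest value of 4.50, a median of 4.62 and a highest value of 6.17 on the other 9 arrays. The highest of the 9 was AA14, and the next was 4.85 on AA10, so that 8 of these arrays lay within a narrow band and AA14 stood between the bands. The mean of the 3 arrays was 8.41 ± 0.60 (SD, n = 3) and that of the 9 was 4.81 ± 0.52 (SD, n = 9). Apart from AA14, the 9 arrays lay within the range of the unspiked controls. No other listed member showed this step on AA14. CG16904, a member of the elongase family that lengthens fatty acids and the second member from the fat body and oenocyte list, had 6.03 on CA6, 5.89 on AA2 and 6.37 on AA6, with a median of 5.22 on the 9 arrays, where AA14 lay 0.14 above the mean of the other 8.

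Cyp4g1 and CG16904 were the 2 of 32 measured genes of that list that met the rule. Over the whole list 19 of 32 genes were higher on the 3 arrays, with a median of 0.02, against 5317 of 10844 over all genes. The most abundant genes of the list, the yolk proteins Yp1, Yp2 and Yp3, which the fat body of females secretes, gave signals of 13.69 to 13.99 on all arrays. The highest signal of any probe set was between 13.82 and 13.99 by array, so a difference in these genes could not be read at this level.

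The ejaculatory duct and bulb list gave the next largest differences. EbpII and Ebp encode proteins of the ejaculatory bulb that enter the mating plug, and they are neighbours in the genome. EbpII had 5.58 on CA6, 5.62 on AA2 and 6.96 on AA6, against a lowest value of 3.39, a median of 3.60 and a highest value of 3.90 on the 9 others. The lowest of its 3 arrays was 1.68 above the highest of the 9, and AA6 stood above the other two by more than 1 log2 unit. Ebp had 4.41 on CA6, 3.95 on AA2 and 5.87 on AA6 and 2.38 to 2.68 on the 9 others, which lie below the mean of the unspiked controls.

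Anp (andropin), an antibacterial peptide of the male ejaculatory duct, was 0.62 higher on the 3 arrays, with 6.33 on AA6 against at most 5.41 on the 9 others. CG13309, of less certain role, had 2.91, 2.80 and 3.02 on CA6, AA2 and AA6 and at most 2.57 on the 9 others, all below the mean of the unspiked controls. EbpIII, another ejaculatory bulb protein by name, was no member: it was abundant on all arrays, with a mean of 11.32 on CA6, AA2 and AA6 and 11.34 on the other 9.

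Among the members from the male accessory gland list, Spn77Bb, a serpin (a protein that inhibits serine proteases), showed the largest difference. It had 4.33 on CA6, 4.68 on AA2 and 5.13 on AA6, against 3.54 to 3.76 with a median of 3.65 on the 9 others. Its neighbour Spn77Bc, also a serpin, was 0.79 higher on the 3 arrays. A second probe set of Spn77Bb missed the rule by 0.001 on CA6, with a difference of 0.50. CG17097, a lipase family member, was 0.52 higher, and SP (sex peptide), which changes the behaviour of females after mating, was 0.34 higher, with 5.59 on AA2 against at most 5.54 on AA18. The 7 accessory gland probe sets that the choice of names left out, among them Mst57Da (1.92 higher) and Acp53C14a (1.44), were highest on AA6 in 5 cases.

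The testis members had small differences, up to 0.57. Mst84Dc (0.57), Mst84Da (0.55), Mst98Cb (0.38) and Mst98Ca (0.31) encode proteins of the sperm tail, and both pairs are close neighbours in the genome. Mst84Dc had 6.70 on CA6, 6.67 on AA2 and 7.06 on AA6, against 6.16 to 6.34 on the 9 others, so even here the bands were apart by 0.33. S-Lap8 (0.39) is a leucyl aminopeptidase of sperm, ocn (0.45) a gene expressed in testis, and betaTub85D, with 3.42 on AA6 and at most 2.97 on the 9 others, the beta tubulin of the male germ line. Of 67 measured testis genes these 7 met the rule, and 3 of the 8 probe sets with several symbols had all their symbols in the testis list (2) or in the accessory gland list (1).

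Digestive enzymes formed the largest listed group, with 14 members and a median difference of 0.63. CG12374, a carboxypeptidase family gene, led it with 5.65 on CA6, 6.28 on AA2 and 6.08 on AA6, against a lowest value of 4.22, a median of 4.41 and a highest value of 4.57 on the 9 others. The trypsin genes betaTry, alphaTry and epsilonTry stand next to each other in the genome and were 1.20, 1.17 and 0.55 higher. The signal of betaTry was 8.11 on CA6, 8.37 on AA2 and 8.16 on AA6, against 6.84 to 7.14 on the 9 others (2.30-fold, SD 0.14 over the 3 and 0.09 over the 9). These 3 arrays were nearly equal, unlike those of Cyp4g1 and EbpII.

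The lysozyme genes LysD, LysE, LysC and LysB, which in fruit flies serve digestion of bacteria in food, were 0.70, 0.62, 0.49 and 0.32 higher. They belong to a cluster of very similar genes whose probe sets can share RNA, so the 4 are not independent. In the genome annotation used here, LysC is a pseudogene. LysB was the most abundant member on the 9 arrays (8.82) and had 9.12 on CA6, 9.14 on AA2 and 9.16 on AA6.

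The maltases Mal-A1 (0.70) and Mal-A6 (0.37), which split sugars, the serine proteases yip7 (0.80) and CG18180 (0.65), the lipase family gene CG6295 (0.42) and the alpha-mannosidase LManVI (0.35) completed the digestive members. From the list of gut lining genes and gut hormones, Mur18B, a mucin-related gene (0.46), and MtnC, a metallothionein that binds metal ions, met the rule as 2 of 51 measured genes. MtnC had 3.02 on CA6, 3.05 on AA2 and 3.28 on AA6 and at most 2.98 on the 9 others. The 8 probe sets of the Jonah serine protease family that the choice of names left out, also enzymes of the midgut, were 0.54 to 3.59 higher. The 3.59 came from 143339_i_at, a probe set with several symbols. Its mean on the 9 other arrays, 2.66, lay below the mean of the unspiked controls, and the next largest difference was 1.18.

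**Figure D2:**
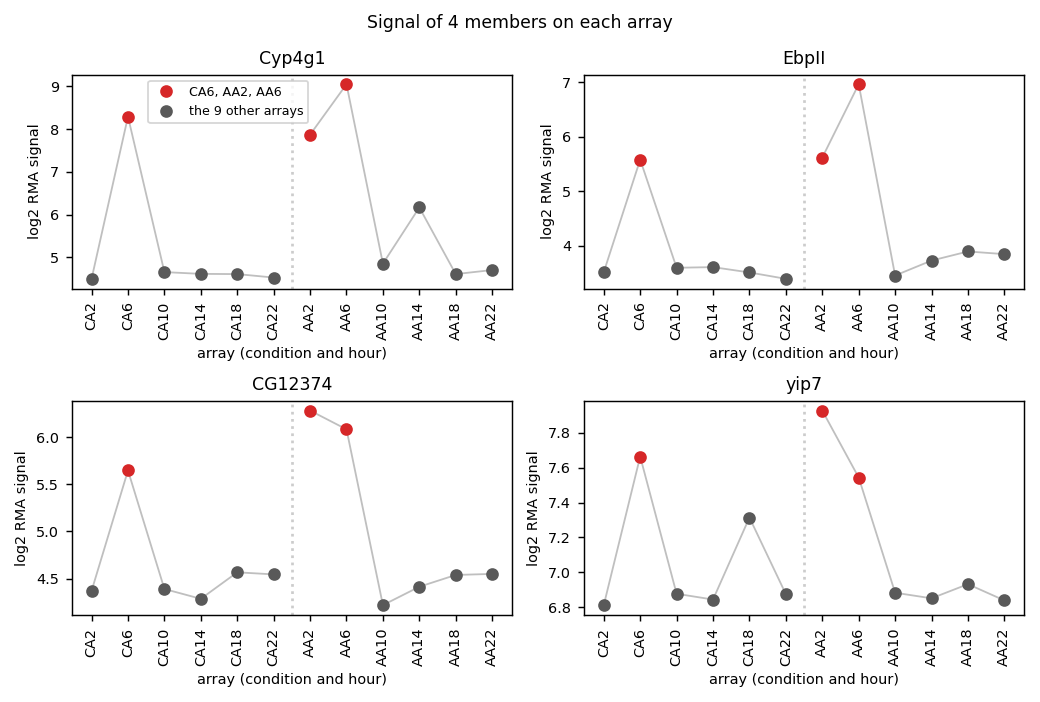
Log2 signal of Cyp4g1, EbpII, CG12374 and yip7 (vertical axes, each with its own range) on each array in the order of sampling, CA2 to CA22 and then AA2 to AA22. Red points are CA6, AA2 and AA6; outside them Cyp4g1 reached 6.17 on AA14 and yip7 7.31 on CA18, while EbpII and CG12374 stayed at or below 3.90 and 4.57.

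Counted over whole lists with 1 probe set per gene, and including the names left out, 5 of 16 measured genes of the ejaculatory duct and bulb list met the rule (31.2%), 11 of 45 of the accessory gland list (24.4%), 19 of 103 of the digestion list (18.4%) and 7 of 67 of the testis list (10.4%). Over all 10844 genes it was 69, or 0.636%. With the names left out, the counts of these lists in the same order were 4 of 16, 4 of 45, 14 of 103 and 7 of 67. Over all genes it was then 57 of 10844. The names that carry most of these counts were known from earlier results of these data, so the shares are a description. Whether pieces of other body parts passed the sieves in these 3 pools was not tested. Lists overlap in part: 5 of the 45 accessory gland genes and 4 of the 103 digestion genes also stand in another list.

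None met the rule of 56 ovary and eggshell genes, 25 genes of the female reproductive tract, 46 of the Malpighian tubule (the kidney of the fly), 31 of thoracic muscle, 10 of trunk segment identity and 25 of blood cells and heart. The same count was 0 of 25 for photoreceptors, 0 of 25 for neurons and glia and 0 of 29 for antenna and other senses. Of the trunk identity genes, 3 were named after their values were seen. The Hox gene Antp, which is expressed in the thorax, had a mean of 2.84 on CA6, AA2 and AA6 and 2.83 on the other 9, below the mean of the unspiked controls on all of them. The means were 4.45 and 4.42 for tsh, and 3.98 and 3.88 for Scr. In this list 8 of 10 genes were higher on the 3 arrays, with a median of 0.04. Its median gene lay 0.09 above its mean of the 9 on CA6, 0.14 above on AA2 and 0.11 below on AA6.

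Among the genes that did not meet the rule, the up to 3 with the highest signal in each list, 44 in all, had differences between -0.21 and 0.40. They were picked as non-members, and abundant genes of the same lists did meet the rule, among them LysB, LysD, LysE, betaTry and Mst98Ca, each with a mean above 7 on the 9 arrays. The upper end was Acp1, which is an adult cuticle protein and stands in the accessory gland list only through its symbol. Mlc2, a myosin light chain of muscle, had a mean of 10.70 on CA6, AA2 and AA6 and 10.76 on the other 9, and the eggshell gene Cp18 had 7.10 and 7.13.

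On CA6, AA2 and AA6 together, 5 of 25 photoreceptor genes lay above their mean of the 9 arrays, with a median of -0.07, and 7 of 25 genes of neurons and glia did, with a median of -0.06. For the remaining head list, antenna and other senses, 13 of 29 genes did, with a median of -0.0039. In the list of blood cells and heart, which is no head list, 8 of 25 did, with a median of -0.02. Over all genes the count was 5317 of 10844. The median gene of the photoreceptor list lay 0.17 below its own mean of the 9 arrays on CA6, 0.03 below on AA2 and 0.02 above on AA6. For neurons and glia it lay 0.11 below on CA6, 0.03 below on AA2 and 0.08 below on AA6. For antenna and other senses it lay 0.04 above on CA6, 0.03 above on AA2 and 0.03 below on AA6. The median of all genes lay within 0.02 of 0 on these 3 arrays.

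**Figure D3:**
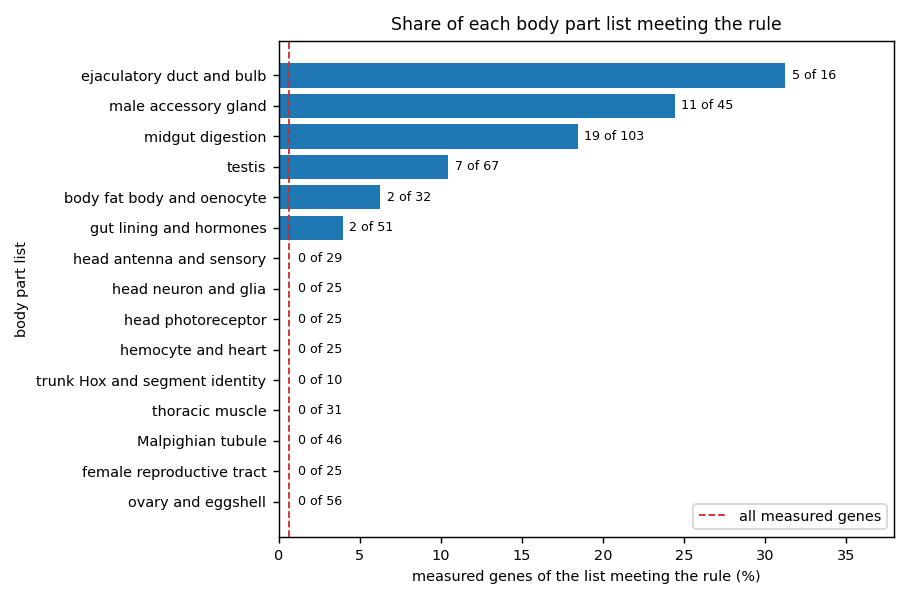
Share of the measured genes in each body part list that met the rule, in percent, with the names later left out still counted; the labels give the number meeting the rule of those measured. The dashed line is the share over all genes, 0.636%, and 9 of the 15 lists have no gene meeting the rule.

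The order of CA6, AA2 and AA6 was not fixed by the rule, but a high value on 1 of them helped a probe set reach the minimum difference. Without AA6, 61 of the 72 members still met the rule, so the counts of the order are not independent of the choice of members. They are given by group of members, without a test. AA6 was the highest array for 55 of the 72 members, CA6 for 10 and AA2 for 7. Over all probe sets, which were not chosen by their values, AA6 lay above AA2 in 41.7%, and over the members in 62 of 72. All 4 duct and bulb members, 6 of 7 testis members and 3 of 4 accessory gland members were highest on AA6, and so were both members of the fat body and oenocyte list, both of the gut lining list, 21 of 27 in no list and all 12 with several symbols or none. The median of AA6 minus AA2 was 0.52 over the 8 accessory gland, duct and bulb members, and Ebp had the widest step with 1.92.

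Digestive members were spread over the 3 arrays. Of the 14, 5 were highest on AA6, 4 on AA2 and 5 on CA6, and the median of AA6 minus AA2 was 0.02, from -0.38 for yip7 to 0.59 for alphaTry. Trypsins differed among themselves: alphaTry had 5.65 on CA6, 5.79 on AA2 and 6.39 on AA6, while betaTry was highest on AA2. The Jonah genes that were left out were highest on AA2 in 7 of 8.

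On CA18, one of the 9 other arrays, several digestive members were high and most male ones were not; this was not tested. CA18 was the highest of the 9 for 8 of 14 digestive members, against 2 of 15 members from the male lists, and for 26.5% of all probe sets. The value of yip7 on CA18 was 7.31, while the other 8 arrays lay between 6.81 and 6.93. CG18180 had 6.54 on CA18 and alphaTry 5.06, which is 0.41 and 0.32 above the mean of the other 8 arrays. Of the left-out Jonah probe sets, 7 of 8 were highest on CA18 among the 9. EbpII lay 0.12 below the mean of the other 8 on CA18, and Cyp4g1 lay 0.22 below. Ebp had 2.38 on CA18, below the mean of the unspiked controls. CA18 is also the array with the low controls for added RNA, and its part in these values was not tested.

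AA18 was the highest of the 9 for 28 of the 72 members, more than any other array, though by small steps: the median member lay 0.08 above its mean of the 9 there. The median of all genes lay 0.02 above on AA18, which also had the highest mean of the unspiked controls, 3.34. The share of all probe sets that were highest on AA18 was not counted, so the 28 cannot be set against it. Of these 28, 13 were members in no list.

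**Figure D4:**
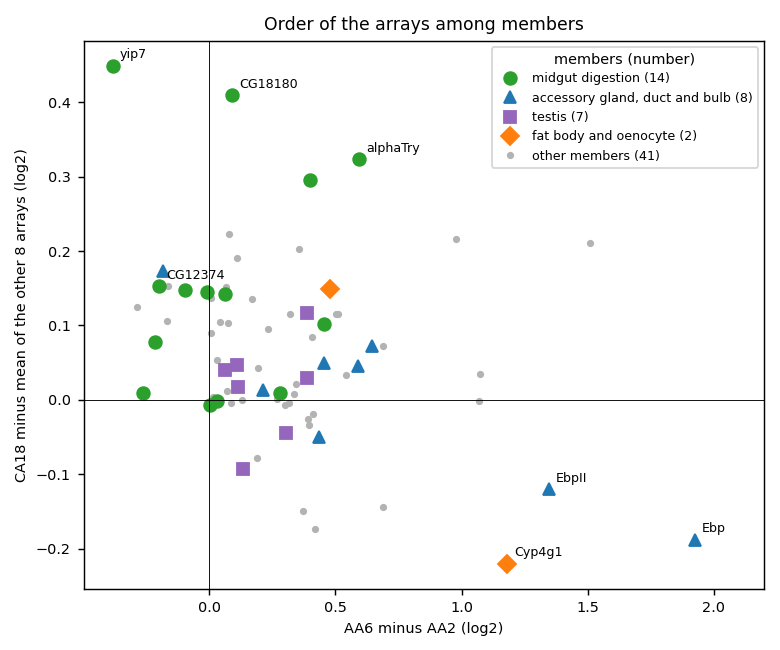
For each of the 72 members, the difference of AA6 and AA2 (horizontal axis, log2) against the difference of CA18 and the mean of the other 8 arrays (vertical axis, log2), with symbols for the body part list. The accessory gland, duct and bulb members extend to the right, up to 1.92 for Ebp, and the digestive members extend upwards, up to 0.45 for yip7.

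Leaving out 1 of the 3 arrays from the rule brought in different genes, which were picked out after their values were seen. Without AA6, 26 further probe sets met the rule, and 3 of these were the only thoracic muscle genes to do so without any 1 of the 3 arrays. Act88F, the actin of flight muscle, had 4.89 on CA6 and 4.80 on AA2, with 4.32 on AA6 and 4.08 to 4.68 on the 9 others. Flightin (fln), a protein of the thick filaments of flight muscle, had 3.47 on CA6, 3.24 on AA2 and 2.83 on AA6, against 2.68 to 3.12. The troponin C gene TpnC4 had 2.63, 2.58 and 2.04 on the same arrays and 1.97 to 2.47 on the 9 others. On AA6 the 3 flight muscle genes were within the range of the 9 others. TpnC4 stayed below the mean of the unspiked controls everywhere, and fln lay above it on CA6 alone.

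Without CA6, 24 further probe sets met the rule, of which 6 were testis genes (Mst77F, janB, Mst87F, dj, Hsp60C and S-Lap7) and 3 were in the accessory gland list (CG31872, CG18284 and the second probe set of Spn77Bb). Mst77F, janB, CG31872 and CG18284 lay below the mean of the unspiked controls on both AA2 and AA6. The sperm tail gene dj (don juan) had 2.42 on AA2, also below them, and 3.62 on AA6, against 2.17 on CA6 and 2.05 to 2.32 on the 9 others. Without AA2, 9 further probe sets met the rule. The members themselves depended on AA6 more than on any other array: 61 of 72 still met the rule without it, against 69 without CA6 and 71 without AA2.

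The 27 members with a symbol that stand in no list were mostly genes named only by number. Among the 20 with the largest differences, CG18628 led (1.10) with 7.91 on CA6, 7.84 on AA2 and 8.53 on AA6, against 6.87 to 7.27 on the 9 others. Its highest of the 9 was AA14, the array on which Cyp4g1 stood out. CG8701 (0.72), CG31988 (0.56), CG34168 (0.54), CG4363 (0.52), CG4836 (0.49), CG10911 (0.48), CG4691 (0.48), CG15219 (0.47), CG17377 (0.47), CG14292 (0.42), Pif1A (0.39), CG3982 (0.37), CG17376 (0.37) and CG1394 (0.36) followed in this group, with Bace and Pen and the low-signal genes CG12861, Sgp and CG8997. CG12861 had 2.94 on CA6, 3.12 on AA2 and 3.80 on AA6 and at most 2.71 on the 9 others. Bace, an aspartic protease (0.71), had 6.12 on CA6, 6.53 on AA2 and 6.37 on AA6, so that AA2 was its highest array, as for 7 members in all. Pen, an importin alpha that carries proteins into the nucleus, had 3.34 on AA6 and at most 2.84 on the 9 others. In this group AA6 was the highest array for 21 of 27.

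Among the 60 genes with 1 symbol, 5 had a second probe set outside the members, and these showed differences of 0.50 (Spn77Bb), 0.17 (CG12699), 0.07 (CG5762), 0.06 (CG1394) and 0.06 (CG17377). For CG12699, CG1394 and CG17377 the second probe set was the brighter one, with means of 5.53, 6.80 and 5.27 on CA6, AA2 and AA6, and its difference was the smaller one.

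The member with the largest difference of all could not be tied to 1 gene. Probe set 144211_at, with several symbols, had 7.48 on CA6, 7.70 on AA2 and 9.21 on AA6, against 4.20 to 4.58 with a median of 4.39 on the 9 others. Its difference was 3.74, from a level on the 9 arrays that is within the range of the unspiked controls. Probe set 143672_at, with no symbol, had 7.98, 8.02 and 9.09 on these 3 arrays and 5.86 to 6.10 on the 9 others. In both, AA6 lay more than 1 log2 unit above the other two, as it also did for EbpII and Ebp.

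The genes of the members were short. Their median length in the genome annotation was 1070 bases over the 59 that could be placed as protein-coding, against 2388 bases over 10775 tested protein-coding genes. They were also spread unevenly over the chromosomes: 3 of 59 (5.08%) lay on X, against 16.3% of tested genes, and 15 (25.4%) on the left arm of chromosome 2, against 18.3%. Of the 59 genes, 16 had another member within 3 places in the order of protein-coding genes, and 8 of the 9 such pairs were next to each other: CG17376 and CG17377, alphaTry and epsilonTry, epsilonTry and betaTry, EbpII and Ebp, LysB and LysD, LysD and LysE, Spn77Bb and Spn77Bc, and Mst98Ca and Mst98Cb. These are descriptions without a test, and neighbours in a gene family can also share probes.

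Members just inside the minimum difference were MtnC, betaTub85D and CG31883, all at 0.30 by the measure of the rule and all among the 11 with low signals. Just outside it were CG12853, CG14926 and Mst87F, with differences of 0.29 and values on CA6, AA2 and AA6 above all 9 others. In all, 59 probe sets whose names were not left out missed the minimum difference alone. A further 26 reached the difference and overlapped with the 9, and in 8 of these a single array of the 9 reached the lowest of the 3.

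The design asks whether heads at 18 °C differ from heads at 25 °C, and whether the phase of a past thermocycle leaves a trace at constant 25 °C. CA6, AA2 and AA6 belong to no single group: CA6 is at 18 °C, and AA2 and AA6 are at 25 °C. The limma fit estimates 1 spread per probe set over all 12 arrays, and the choice of members put the step on these 3 arrays into that spread. For the members its p-values are therefore no test. The fit without the 3 arrays is no test for them either, since all 9 of its arrays are those that the rule held low. It also leaves AA10 as the only AA cold array, which is assumed to vary like the other groups. For the members, its differences are given below. Counts of its unadjusted p-values, for the members and over all probe sets, are printed only as a description. They are no test of the members, and no conclusion is drawn from setting them side by side.

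In the fit of all 12 arrays, no member passed an adjusted p of 0.05 in any comparison (Benjamini-Hochberg over all probe sets). Over all probe sets 2 passed for CA warm against AA warm (0.0143%), 1 for CA cold against CA warm (0.00716%) and none for AA cold against AA warm or CA cold against AA cold (0.0% each). Without the 3 arrays no probe set at all passed in the 4 comparisons.

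In CA warm against AA warm, whose groups hold none of the 3 arrays, the difference was above 0 in 36 of 72 members, against 48.4% of all probe sets. EbpII had 3.50 ± 0.11 in CA warm and 3.82 ± 0.09 in AA warm (SD, n = 3 each), a difference of -0.32. Cyp4g1 had the widest difference, -0.58, with 4.58 ± 0.05 in CA warm and 5.16 ± 0.87 in AA warm, where AA14 gave the spread.

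CA cold against CA warm holds CA6, which the rule set high. There 65 of 72 members were above 0, against 46.1% of all probe sets, with a median of 0.13. Without CA6, 27 of 72 were above 0, against 44.0% of all, and the median was -0.04. In the fit without the 3 arrays, 4 members had an unadjusted p under 0.05, all lower in CA cold, against 7.75% of all probe sets. EbpII averaged 4.23 ± 1.17 in CA cold and 3.50 ± 0.11 in CA warm, and CA6 alone gave the spread in CA cold.

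AA cold against AA warm holds AA2 and AA6, so that 2 of 3 arrays in AA cold were fixed as high by the choice of members. All 72 differences were above 0, against 41.2% of all probe sets, with a median of 0.32. Without the 3 arrays, 17 of 72 were above 0, against 35.9% of all, and the median was -0.07. In that fit AA10 is the only AA cold array, and the rule held all its arrays low for the members. Its count of p-values among the members therefore cannot show an excess over all probe sets. There 9 members had an unadjusted p under 0.05, all lower in AA cold, against 7.03% of all probe sets.

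CA cold against AA cold sets 1 of these arrays against 2 of them. Only CG1394, LManVI and CG8997 were above 0, 3 of 72 members against 50.9% of all probe sets, and the median was -0.22. Without the 3 arrays 50 of 72 were above 0, against 56.2% of all, and the median was 0.04. There 2 members had an unadjusted p under 0.05, both higher in CA cold, against 4.14% of all. For the difference between the days in the step between the phases, 49 of 72 members were above 0 without the 3 arrays. Their median was 0.05, against 0.03 over all probe sets.

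**Figure D5:**
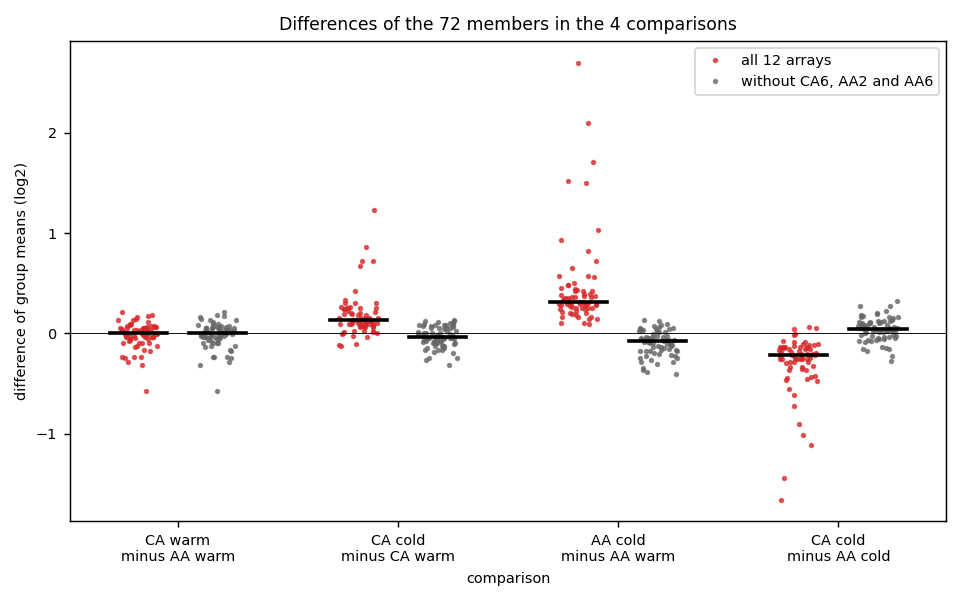
Differences of group means (log2, vertical axis) of the 72 members in the 4 comparisons, with all 12 arrays (red, left) and without CA6, AA2 and AA6 (grey, right); each point is a member and the black bar is the median. The medians with all arrays are -0.0013, 0.13, 0.32 and -0.22, and without the 3 arrays all lie between -0.07 and 0.04.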

How the data were processed

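RNA of fly heads from 12 times was measured on Affymetrix Drosophila Genome 1 arrays. The deposited values are log2 signals that the authors made with RMA, which corrects background, normalizes the quantiles between arrays and summarises each probe set by median polish; the submitters' processing notes give no version. No further normalization was applied. Probe sets were named through GEO's platform annotation, brought up to date through gene identifiers with the RefSeq table of release 6 plus ISO1 MT: 12443 probe sets had 1 symbol, 327 several and 1196 none, and none was named from a probe set with several. Control probe sets (44) were set aside.

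The members and the 15 body part lists were chosen with earlier results of these data known. Named are all members in a list, the 20 other members with a symbol and the largest difference, those at the threshold, and up to 3 abundant non-members per list, in part by way of their range. Antp, tsh, Scr, Act88F, fln and TpnC4 were named after their values were seen. A gene's value in a list is that of its probe set with the highest mean. Groups came from the sample titles. The 4 group means were fitted with limma 3.58.1 in R 4.3.3 on all 12 arrays (8 residual degrees of freedom), two-sided, adjusted over 13966 probe sets at 0.05. The fit and the rule were tested on simulated data. Alternatives left out each array or CA6, AA2 and AA6, took the clock hour as a block, weighted arrays, removed low signals (below the 20th percentile of the array on most arrays), used 1 probe set per gene, and changed the minimum difference. With 1 array per time, the number of arrays limits the precision.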

Additional observations from a re-analysis of the deposited data

How the results depend on the processing

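The count of members depended on the minimum difference: 36 met the rule at 0.5 and 131 with no minimum, and 46 of the 72 passed a filter on low signals. Leaving out 1 array gave 71 to 93 members. No member passed the adjusted threshold in any of the 4 comparisons under any alternative run, but for the members none of these fits is a test. The rule set CA6, AA2 and AA6 high and held the 9 other arrays low. The counts over all probe sets were small and moved with the settings. For CA warm against AA warm the count of 2 became 0 without CA6, AA2 and AA6, 1 with 1 probe set per gene and 8 with array weights, and lay between 0 and 10 when 1 array was left out. For CA cold against CA warm the count of 1 became 0 without the 3 arrays and 3 with array weights, and lay between 0 and 9 without 1 array. For AA cold against AA warm it was 0 to 5 without 1 array, the 5 without CA18. For CA cold against AA cold it was 0 to 1 without 1 array and 1 with array weights. The causes were not tested. Taking the clock hour as a block, which pairs the days, gave 0 called in all 4 comparisons. The numbers are only times: the residuals of arrays of the same hour correlated between -0.23 and 0.25. No list count changed when all probe sets of the listed genes were used. For the 11 members below the unspiked controls on the 9 other arrays, the array floor limits the size of the difference.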
